A study of Homo sapiens with 12 samples.

Results

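GREM1 codes for gremlin-1, a secreted antagonist of bone morphogenetic proteins (BMPs), and it is described here with 9 genes that transmit, limit or report BMP signalling: ID1, ID2, ID3, ID4, BAMBI, SMAD6, SMAD9, BMP4 and BMPR2. The members were listed by name, and their values came from the row of the expression table that carries each symbol in the platform annotation. Of the 10 members, 9 had 1 row each and ID4 is not analysed here. A filter on dim signals kept 8 of these 9, all but BMP4, among 10807 genes tested of 13530 genes with a row. The members were chosen with the FICZ results of these arrays in view, that is, they were chosen by measured values of the FICZ and DMSO arrays. Their differences between FICZ and DMSO are therefore given as a description, and counts of members past a threshold there test nothing.

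The arrays measured total RNA of U-87MG, an established human glioblastoma cell line, labelled with an Affymetrix whole-transcript kit, on 12 arrays. All cells carried shCtrl, a control shRNA delivered by lentivirus to make a stable line. Cells received 100 nM FICZ (6-formylindolo(3,2-b)carbazole, a tryptophan photoproduct), 50 µM KynA (kynurenic acid, a tryptophan metabolite) or the solvent DMSO for 24 h, with 4 arrays in each group that the labels call biological replicates. The study asked how expression changes with ligands of AHR, the aryl hydrocarbon receptor, which acts as a transcription factor once a ligand binds it. Separate cultures or days are not stated, so p-values reflect the spread among the arrays of a group, and that spread may be technical.

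BMPs are secreted ligands that bind a complex of type I and type II serine/threonine kinase receptors, which phosphorylate SMAD1, SMAD5 and SMAD9, and these move with SMAD4 to the nucleus. Gremlin-1 binds BMP2, BMP4 and BMP7 outside the cell and keeps them from their receptors. The ID genes are classical direct targets of the pathway, and their products bind basic helix-loop-helix (bHLH) transcription factors and keep them off DNA. In glioma, BMPs are known to push stem-like cells towards astrocytic differentiation, and gremlin-1 has been described as an antagonist made by such cells.

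Promoter sequence from RefSeq (GRCh38.p14) is shown for GREM1 and the 3 measured ID genes, because these are the genes whose levels the results turn on. Each line runs 5′ to 3′ and ends at the base before an annotated transcript start, and capitals mark the core of the AHR binding site, GCGTG, or its reverse complement CACGC. GREM1 has 2 windows on the plus strand of chromosome 15, at chr15:32717754-32718003 and chr15:32718384-32718483. ID1 lies on the plus strand at chr20:31605039-31605288, ID2 on the plus strand at chr2:8681806-8682055 and ID3 on the minus strand at chr1:23559502-23559751.
GREM1 upstream start: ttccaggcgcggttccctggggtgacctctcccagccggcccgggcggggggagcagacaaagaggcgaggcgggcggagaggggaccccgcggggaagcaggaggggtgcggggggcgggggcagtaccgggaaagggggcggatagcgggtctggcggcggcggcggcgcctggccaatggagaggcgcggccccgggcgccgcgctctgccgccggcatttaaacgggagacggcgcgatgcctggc
GREM1 downstream start: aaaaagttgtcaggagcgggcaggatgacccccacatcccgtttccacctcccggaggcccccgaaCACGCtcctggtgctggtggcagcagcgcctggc
ID1: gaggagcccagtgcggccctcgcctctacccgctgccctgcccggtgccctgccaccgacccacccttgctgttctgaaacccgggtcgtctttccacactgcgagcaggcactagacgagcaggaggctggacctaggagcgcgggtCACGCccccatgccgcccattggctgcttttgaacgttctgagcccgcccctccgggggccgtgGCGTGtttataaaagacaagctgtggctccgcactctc
ID2: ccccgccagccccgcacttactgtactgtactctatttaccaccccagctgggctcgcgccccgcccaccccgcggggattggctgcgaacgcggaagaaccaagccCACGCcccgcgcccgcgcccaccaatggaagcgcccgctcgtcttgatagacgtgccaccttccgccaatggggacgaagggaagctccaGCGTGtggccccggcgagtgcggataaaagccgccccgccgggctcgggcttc
ID3: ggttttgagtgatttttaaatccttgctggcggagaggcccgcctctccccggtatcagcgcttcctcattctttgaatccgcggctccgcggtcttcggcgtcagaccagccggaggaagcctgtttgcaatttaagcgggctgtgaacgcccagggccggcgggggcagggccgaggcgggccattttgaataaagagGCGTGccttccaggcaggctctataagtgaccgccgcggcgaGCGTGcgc

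The search covered windows of 300 bases (250 before and 50 from the start on), on both strands. All 10 members had at least 1 RefSeq window, 13 windows in all, of which 6 held the AHR core, 4 the motif GGCGCC and 10 the SMAD box described next. The core GCGTG occurred 2 times each at ID1, ID2, ID3 and the downstream start of GREM1, where the match outside the printed bases begins at position -242 relative to the start. It occurred 1 time at BAMBI and 2 times at 1 of 3 BMP4 windows, and the letters of the upstream GREM1 window and those of ID4, SMAD6, SMAD9 and BMPR2 did not hold it. Of all 35116 promoter windows of that length, 36.5% held at least 1 match and 12.7% held 2 or more. The GC-rich SMAD motif GGCGCC, its own reverse complement, occurred 3 times at BAMBI, 2 times at the upstream GREM1 start and at 1 BMP4 window, and 1 time at BMPR2, against 19.2% of all windows with at least 1. The SMAD box CAGAC or GTCTG occurred 4 times at BMPR2, 2 times at BAMBI and at each GREM1 start, 1 time at ID3, ID4, SMAD9 and each BMP4 window, and not at ID1, ID2 or SMAD6, against 45.3% of all windows. A match in these letters is a description of sequence and not a measured binding site.

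Ligand response was checked on known AHR targets. CYP1B1, a cytochrome P450 gene, averaged 10.56 ± 0.227 with FICZ, 10.2 ± 0.297 with KynA and 9.487 ± 0.285 with DMSO on the log2 signal scale (SD, n = 4 each). TIPARP, a feedback inhibitor of AHR, averaged 10.55 ± 0.234, 9.957 ± 0.22 and 9.342 ± 0.175 in the same order. Against DMSO both passed with FICZ (limma adjusted p = 0.00629 for CYP1B1 and 0.000659 for TIPARP). Neither passed with KynA (limma adjusted p = 0.494 and 0.469). Of the 9 markers listed for a glioma line, 6 had a row and 5 were tested, and none of the 5 passed in any comparison. SOX2, S100B and OLIG2 were not among the rows used here. Array FICZ 4 stood apart from the others, at -24.2 on the first principal component, which held 24.6% of the variance, while FICZ 2 was at -13.6. Its limma array weight of 0.551 was also the lowest.

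GREM1 was highest with FICZ, intermediate with KynA and lowest with DMSO, and no arrays of these groups overlapped. Its log2 signal was 11.91, 11.85, 11.79 and 11.91 in the FICZ arrays, 11.63, 11.37, 11.7 and 11.49 in the KynA arrays, and 11.03, 10.96, 11.12 and 11.19 in the DMSO arrays. The lowest FICZ array thus lay above the highest KynA array, and the lowest KynA array above the highest DMSO array. The group means were 11.87 ± 0.059 with FICZ, 11.55 ± 0.146 with KynA and 11.08 ± 0.102 with DMSO (SD, n = 4 each). The log2 difference of FICZ from DMSO was 0.79 ± 0.0875 (SE; 1.73-fold). These are bulk signals, in which a change in the number of cells that make a transcript and a change per cell cannot be told apart.

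**Figure D1:**
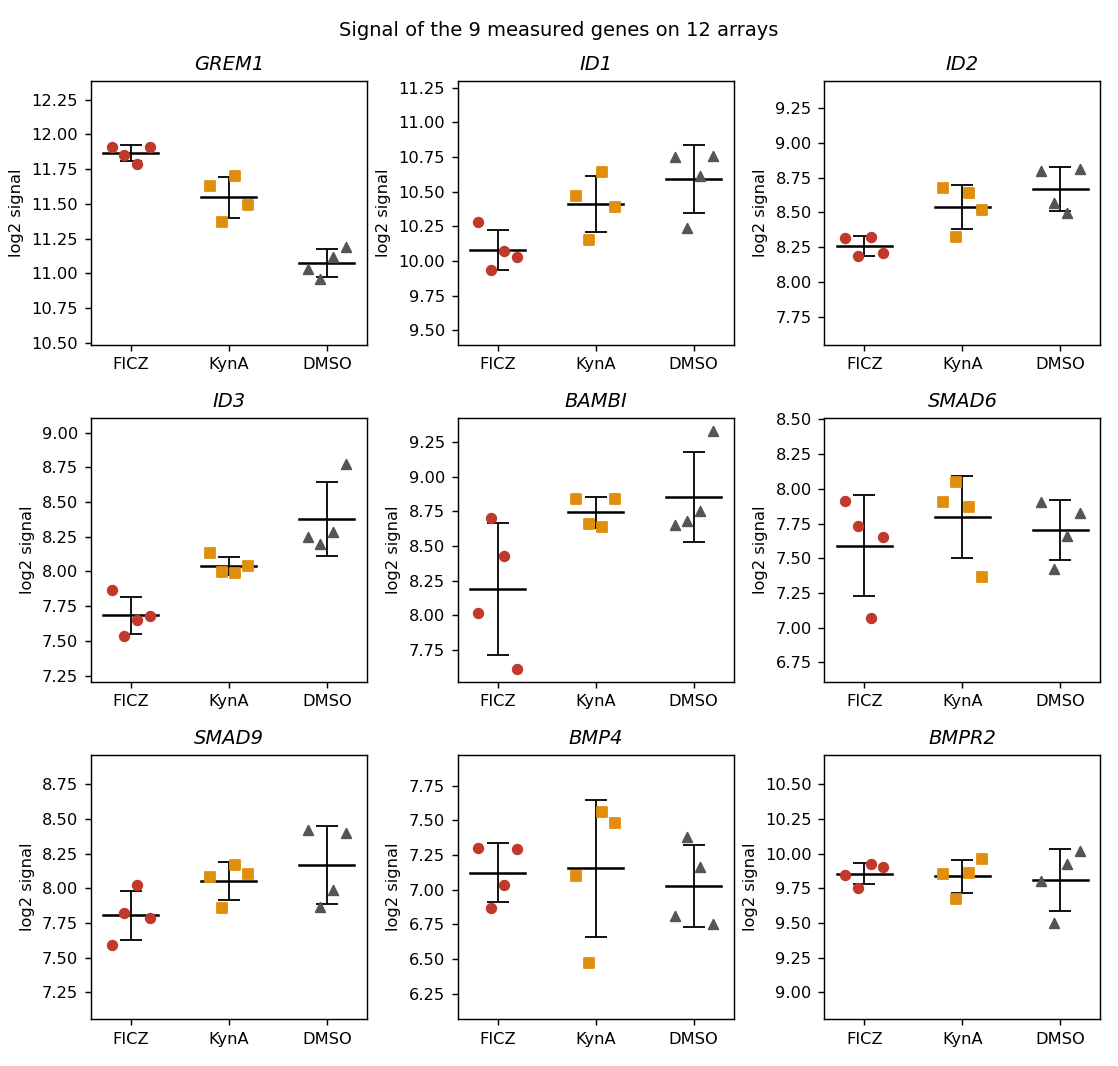
Log2 signal (vertical axis) of the 9 measured genes in 4 FICZ, 4 KynA and 4 DMSO arrays; points are arrays, lines are group means and bars are the SD, and every panel spans the same range of log2 units. GREM1 separates the 3 groups without overlap, ID3 does so in the opposite direction, and the arrays of BMPR2 and BMP4 overlap.

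The ID genes lay lowest with FICZ. ID3 had log2 signals of 7.865, 7.538, 7.649 and 7.681 with FICZ, 8.131, 7.999, 7.986 and 8.039 with KynA, and 8.252, 8.201, 8.284 and 8.772 with DMSO. Its 3 groups did not overlap, in the order opposite to GREM1, and DMSO 4 lay far above the other DMSO arrays. Of the FICZ arrays, 3 were below their filter value, the 25th percentile of an array (7.687 to 7.743), which limits how well the size of the difference of -0.69 ± 0.117 (SE; 1.62-fold lower with FICZ) is measured. Without DMSO 4 the difference was -0.56.

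ID2 had 8.315, 8.183, 8.323 and 8.205 with FICZ, 8.679, 8.321, 8.64 and 8.518 with KynA, and 8.799, 8.571, 8.496 and 8.812 with DMSO. All FICZ arrays of ID2 lay below all DMSO arrays, while KynA 2 lay within the FICZ range. ID1 had 10.28, 9.935, 10.07 and 10.03 with FICZ, 10.47, 10.15, 10.64 and 10.39 with KynA, and 10.75, 10.24, 10.61 and 10.76 with DMSO. For ID1 the groups overlapped, because DMSO 2 lay below FICZ 1. The difference of FICZ from DMSO was -0.41 ± 0.0996 for ID2 (1.33-fold lower) and -0.51 ± 0.129 for ID1 (1.42-fold lower).

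BAMBI codes for a membrane pseudoreceptor that lacks a kinase domain and dampens BMP and TGF-beta receptors, and it is itself induced by BMP. Its log2 signals were 8.018, 8.701, 8.427 and 7.61 with FICZ, 8.838, 8.659, 8.636 and 8.838 with KynA, and 8.651, 8.679, 8.751 and 9.332 with DMSO. The FICZ arrays spread more widely than those of any other member, and FICZ 2 lay within the DMSO range, and the difference from DMSO was -0.66 ± 0.201 (SE). It was -0.47 without FICZ 4 and -0.51 without DMSO 4, the highest of its group.

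SMAD9 codes for a receptor-activated SMAD of the BMP branch and SMAD6 for an inhibitory SMAD, both known to be induced by BMP. SMAD9 had 7.595, 7.821, 8.027 and 7.786 with FICZ, 8.08, 7.861, 8.172 and 8.103 with KynA, and 8.424, 7.867, 7.988 and 8.399 with DMSO. Its FICZ and DMSO arrays overlapped, and the difference was -0.36 ± 0.133. SMAD6 ran from 7.071 to 7.912 with FICZ, 7.365 to 8.048 with KynA and 7.423 to 7.908 with DMSO, with a difference of -0.11 ± 0.179 for FICZ that changed sign to 0.06 without FICZ 3. SMAD6 was dim, with 3 of 4 FICZ arrays below their filter values.

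The receptor and ligand members did not separate the groups. BMPR2, the type II BMP receptor, averaged 9.857 ± 0.0775 with FICZ, 9.838 ± 0.118 with KynA and 9.811 ± 0.227 with DMSO (SD, n = 4 each), with a difference of 0.05 for FICZ (95% interval -0.184 to 0.276). BMP4, a ligand that gremlin-1 binds, ran from 6.866 to 7.298 with FICZ, 6.475 to 7.562 with KynA and 6.754 to 7.38 with DMSO. Every BMP4 value was below its array's filter value, so BMP4 was not tested, and its means differed by 0.1 between FICZ and DMSO.

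The members' counts in this contrast follow from how they were chosen, so they are given beside the shares over all genes, as no test of the members and with nothing read from them. At the threshold of the fit across all genes (limma with Benjamini-Hochberg adjustment, 0.05) lay 2 of the 8 members, GREM1 on the higher side and ID3 on the lower, beside 0.851% of all genes tested. ID3 was in the fit through its KynA and DMSO arrays and 1 FICZ array. It was not past the threshold without FICZ 2 or with only the 8 FICZ and DMSO arrays, and a filter at the 50th percentile left it out. At an unadjusted p under 0.05 the counts were 1 higher and 5 lower of 8, beside 5.89% and 8.65% of all genes (14.5% in either direction). Groups did not overlap in 1 member that was higher (GREM1, beside 2.94% of genes) and in 2 that were lower (ID2 and ID3, beside 4.91%). Of the 8 members 6 had values below 0, as had 58.6% of all genes.

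**Figure D2:**
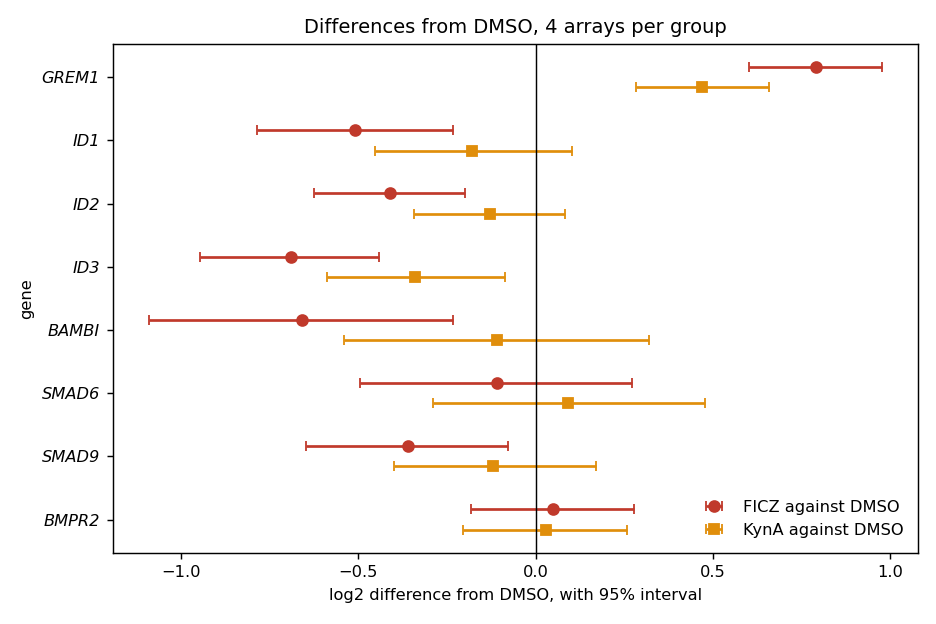
Log2 difference from DMSO (horizontal axis) for the 8 tested members, with FICZ as circles and KynA as squares and bars for the 95% interval of limma's fit over 12 arrays. GREM1 is above 0 with both ligands (0.79 and 0.47), and the interval of ID3 lies below 0 with both, while those of ID1, ID2, BAMBI and SMAD9 reach 0 with KynA.

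KynA against DMSO used other treated arrays than the FICZ contrast, but the same DMSO arrays. Earlier results of these data were known when the members were chosen. GREM1 was higher with KynA by 0.47 ± 0.0875 (SE; 1.38-fold; 95% interval 0.282 to 0.657), in 4 of 4 arrays. Its unadjusted p ranked 3 among 10807 genes, and it did not pass after adjustment (limma adjusted p = 0.284). It passed with a trended, robust variance (limma adjusted p = 0.0356), and in the other alternatives, each array left out in turn included, the limma adjusted p lay between 0.0788 and 0.841. None of the 8 members tested passed, against 0.00925% of all genes. At an unadjusted p under 0.05 there were GREM1, higher, and ID3, lower, against 1.87% of all genes that were higher and 1.52% that were lower (3.39% in all). Values lay below 0 for 5 of the 8 members and for 52.4% of all genes.

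ID3 was lower with KynA by 0.34 ± 0.117 on the log2 scale (1.26-fold; limma adjusted p = 1), and all 4 KynA arrays lay below all 4 DMSO arrays. Without DMSO 4 its difference was -0.21. GREM1 was thus the 1 member whose KynA arrays all lay above the DMSO arrays (1.13% of genes did so) and ID3 the 1 member whose KynA arrays all lay below them (1.28% of genes).

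Differences with KynA were -0.18 for ID1 (95% interval -0.453 to 0.101), -0.13 for ID2 (-0.343 to 0.0836), -0.12 for SMAD9 (-0.4 to 0.169) and -0.11 for BAMBI (-0.541 to 0.319). Leaving out 1 array moved each of them by over 1.5 times: ID1 to -0.09 without KynA 2 and -0.29 without DMSO 2, ID2 to -0.06 without KynA 2, SMAD9 to -0.03 without DMSO 1 and -0.22 without DMSO 2, and BAMBI to 0.05 without DMSO 4. SMAD6 differed by 0.09 (-0.29 to 0.478; 0.00 without DMSO 2 and 0.24 without KynA 4) and BMPR2 by 0.03 (-0.204 to 0.256), and each of these 6 genes had a limma adjusted p = 1. The intervals of ID1, ID2, SMAD9 and BAMBI reach from below -0.3 to above 0.

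The ligands were also set against each other, at doses that were not matched and with FICZ arrays that had served to choose the members. GREM1 was higher with FICZ by 0.32 (95% interval 0.132 to 0.507; limma adjusted p = 0.38), and ID3 was lower by 0.36 on the log2 scale (limma adjusted p = 0.466). Neither gene's FICZ and KynA arrays overlapped, as for 1.4% of genes that were higher and 2.79% that were lower. BAMBI differed by -0.55 (-0.984 to -0.124; limma adjusted p = 0.502; -0.36 without FICZ 4), ID1 by -0.33 (-0.611 to -0.057; 0.52) and ID2 by -0.28 (-0.497 to -0.0697; 0.499). None of the 8 members tested passed, against 0.00925% of all genes. At an unadjusted p under 0.05 there were 1 higher and 4 lower, against 3.12% and 5.22% of all genes (8.34% in either direction), and 6 of 8 lay below 0, as did 57.3% of all genes.

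In group means GREM1 was highest and the ID genes lowest with FICZ, a contrast that had served to choose the members. The arrays are described singly here. In every FICZ array GREM1 lay 0.71 to 0.84 above the DMSO mean, and 5 or 6 of the 6 target members (ID1, ID2, ID3, BAMBI, SMAD6 and SMAD9) lay below theirs. Of all genes tested, 52.3% to 59% lay below the DMSO mean in a FICZ array. In each FICZ array 4 or 5 of the 6 targets were below every DMSO array, beside 23.5% to 37% of all genes, and nothing is read from these counts for members chosen on this contrast. In the KynA arrays 3 to 6 of the 6 lay below the DMSO mean, beside 47.4% to 53.8% of all genes, and 1 to 4 below every DMSO array, beside 19% to 23.8%. KynA 3, with the highest GREM1 of its group at 0.62 above the DMSO mean, had 3 of the 6 targets below the DMSO mean, and the mean of its 3 ID genes lay 0.12 below it. KynA 2, with the lowest GREM1 of its group at 0.30, had 5 of 6 below and an ID mean at -0.39. The DMSO arrays ranged from 0 of 6 in DMSO 4, which had the highest GREM1 of its group, to 6 of 6 in DMSO 2, which had the lowest. Of all genes, 45.8% lay below the DMSO mean in DMSO 4 and 54.2% in DMSO 2. That mean is made of the DMSO arrays themselves, so nothing is read from their counts.

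**Figure D3:**
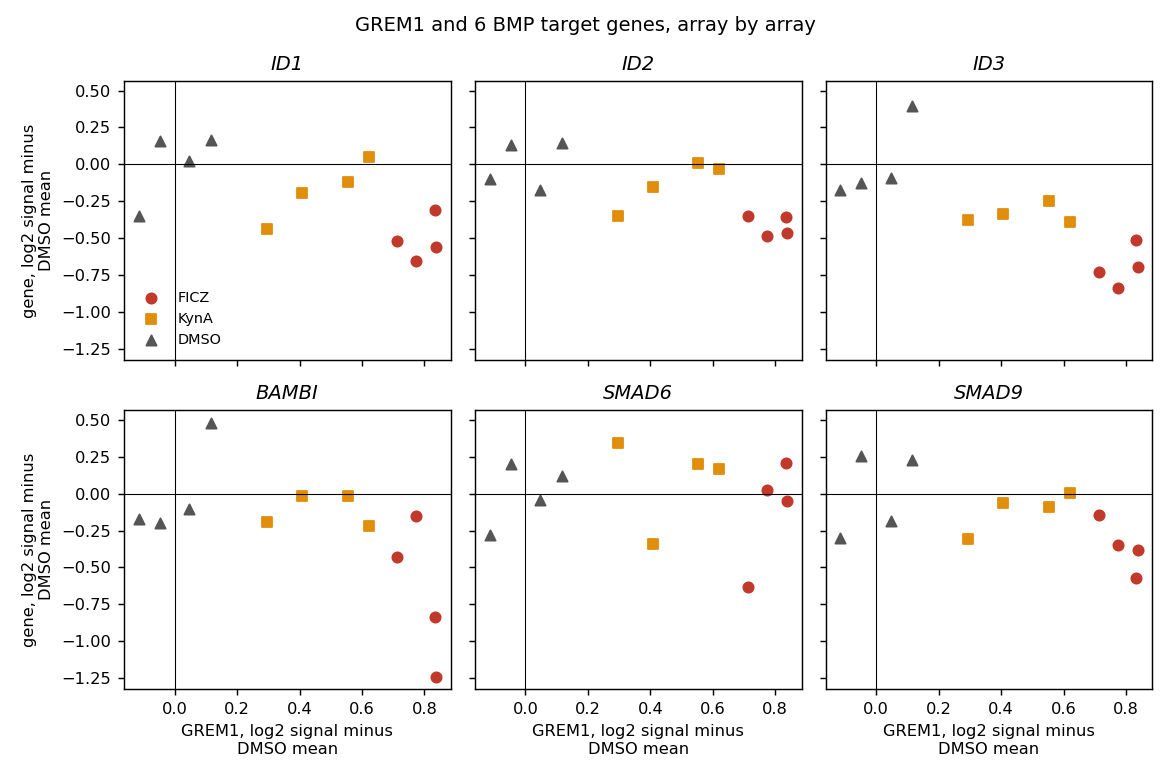
Log2 signal minus the DMSO mean for GREM1 (horizontal axis) and 6 BMP target members (vertical axis) in each of 12 arrays, with FICZ as circles, KynA as squares and DMSO as triangles. The FICZ arrays sit to the right at GREM1 values of 0.71 to 0.84 and mostly below 0, and within KynA the arrays with more GREM1 do not have less ID1 or ID2.

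Since GREM1 split the arrays into groups that did not overlap, no correlation with GREM1 was tested over the pooled arrays. Each array's deviation from its own group mean was used instead, for GREM1 and each of the other 7 tested members, with an exact permutation of the arrays within groups (13824 arrangements, two-sided) and adjustment over the 7 pairs. All 7 correlations were positive, except that with the mean of each replicate number also removed SMAD9 was at -0.01. The others were then 0.62 for ID1, 0.35 for ID2, 0.39 for ID3, 0.21 for BAMBI, 0.60 for SMAD6 and 0.21 for BMPR2. For ID1 Pearson's r was 0.76 (exact permutation p = 0.0119, adjusted 0.083) and Spearman's rho 0.71 (p = 0.0315, adjusted 0.22), and r was 0.61 without KynA 2 and KynA 3, the arrays farthest from the median of GREM1. For ID2 r was 0.57 (exact permutation p = 0.136, adjusted 0.237; rho 0.57, p = 0.122, adjusted 0.316; r 0.30 without those arrays). For ID3 r was 0.51 (exact permutation p = 0.0671, adjusted 0.158; rho 0.41, p = 0.18, adjusted 0.316; r 0.73 without them).

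The receptor BMPR2 had r = 0.60 (exact permutation p = 0.0679, adjusted 0.158; rho 0.48, p = 0.181; r 0.59 without those arrays). SMAD6 had r = 0.32 (exact permutation p = 0.356, adjusted 0.416; rho 0.11, p = 0.748; r 0.65 without them) and SMAD9 r = 0.31 (exact permutation p = 0.327, adjusted 0.416; rho 0.32, p = 0.339; r 0.09 without them). BAMBI had r = 0.06 (exact permutation p = 0.815, adjusted 0.815; rho 0.02, p = 0.947; r 0.09 without them). None of the 7 pairs passed. The pair of GREM1 and ID1 passed without DMSO 1 (r = 0.86, adjusted exact permutation p = 0.0304). BAMBI had r below 0 under cyclic loess (-0.09), without DMSO 2 (-0.02) or without DMSO 4 (-0.21). Of the other genes tested, 83 had a higher within-group r with GREM1 than ID1 had, and 839 a higher one than ID3. The deviations of GREM1 had r = 0.01 with those of the first principal component, and those of ID1 had 0.48, ID2 0.38 and ID3 0.23, each over 12 arrays.

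**Figure D4:**
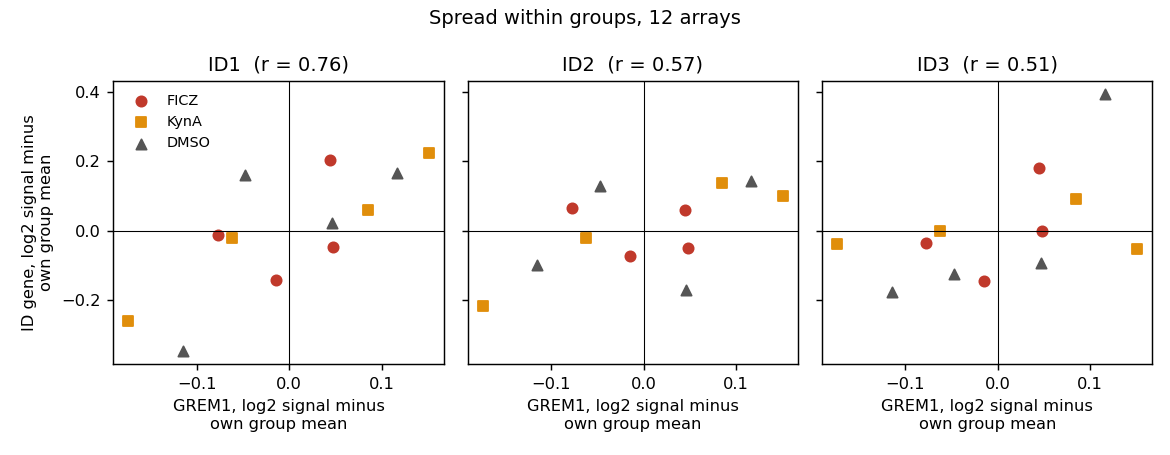
Deviation of each array from its own group mean, for GREM1 (horizontal axis) and ID1, ID2 and ID3 (vertical axis), in log2 units over 12 arrays (FICZ circles, KynA squares, DMSO triangles). Pearson's r over the 12 arrays is 0.76, 0.57 and 0.51, and none of these pairs passed after adjustment. Without KynA 2 and KynA 3 r is 0.61, 0.30 and 0.73.

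The wider pathway was read from 6 lists of ligands, antagonists, receptors, SMAD proteins, modulators and targets, members left out. Of their 62 genes, 44 had a row and 34 were tested. None passed with FICZ, where 5 were higher and 1 lower at an unadjusted p under 0.05 (5.89% and 8.65% of all genes), and the median difference was -0.04, beside -0.031 over all genes. The 5 include BMP2, which passed the filter on dim signals only with the help of its FICZ arrays, so nothing is read from that count. None passed with KynA by limma either, and at an unadjusted p under 0.05 there were 0 in each direction, with a median of 0.03.

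Among ligands, GDF5, known for its part in joint formation, was 9.401, 9.264, 9.297 and 9.248 with FICZ against 8.952, 8.973, 8.856 and 8.792 with DMSO, without overlap. Its difference of 0.41 ± 0.099 did not pass (limma adjusted p = 0.0711), but it passed under the stricter filter (0.0464), with a trended, robust variance (0.0481) and without KynA 4 (0.0283). BMP2, a ligand that gremlin-1 binds, differed by 0.32 ± 0.118 (limma adjusted p = 0.228). It passed the filter on dim signals only with the help of its FICZ arrays, so nothing is read from its difference. The other tested antagonists did not follow GREM1. CHRDL1, a chordin-like BMP antagonist, differed by -0.31 ± 0.0962 (limma adjusted p = 0.157) and FSTL3, a follistatin-like protein, by -0.18 (0.42), and the list apart from GREM1 ran from -0.31 to 0.15. Among receptors ACVRL1, a type I receptor, differed by 0.49 ± 0.227 (limma adjusted p = 0.338) and the co-receptor RGMB by 0.25 (0.453). The SMADs other than the members lay between -0.08 and 0.09, with SMAD1 at 0.09 (limma adjusted p = 0.654). Of the modulators TOB1, an antiproliferative protein, was at -0.20 (0.476).

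Of the BMP targets that are not members 5 were tested, ATOH8, DLX1, DLX2, GATA3 and RUNX2. They had values from 0 to 0.43 with FICZ and from 0.12 to 0.27 with KynA, and none passed. Of all genes, 58.6% lay below 0 with FICZ and 52.4% with KynA. The members were chosen with FICZ values in view, so their difference in sign from these 5 genes with FICZ tests nothing. GATA3, a lineage transcription factor, was 8.633, 8.722, 8.803 and 8.783 with FICZ against 8.479, 8.34, 8.071 and 8.344 with DMSO, without overlap (0.43 ± 0.112, limma adjusted p = 0.0981). RUNX2, a regulator of bone formation, was 9.173, 8.924, 9.294 and 9.04 with FICZ against 8.748, 8.794, 8.839 and 8.82 with DMSO, also without overlap (0.31 ± 0.0879, limma adjusted p = 0.128). The median of the whole target list of 11 tested genes was -0.11 with FICZ and 0.09 with KynA. Of the bHLH partners of ID proteins, TCF12, an E protein, lay at 10.17, 10.05, 10.31 and 10.02 with FICZ, 10.16, 10.26, 10.26 and 10.3 with KynA, and 10.4, 10.49, 10.48 and 10.53 with DMSO. Each ligand's arrays lay below the DMSO arrays. The differences of -0.34 ± 0.0809 with FICZ (limma adjusted p = 0.0711) and -0.23 ± 0.0809 with KynA (limma adjusted p = 1) did not pass. The E protein gene TCF3 differed by -0.14 with FICZ (limma adjusted p = 0.547). TGF-beta targets differed by -0.14 to 0.07 with FICZ over 5 tested genes, led by TGFBI at 0.07 (limma adjusted p = 0.693) and SKIL at -0.14 (0.735).

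**Figure D5:**
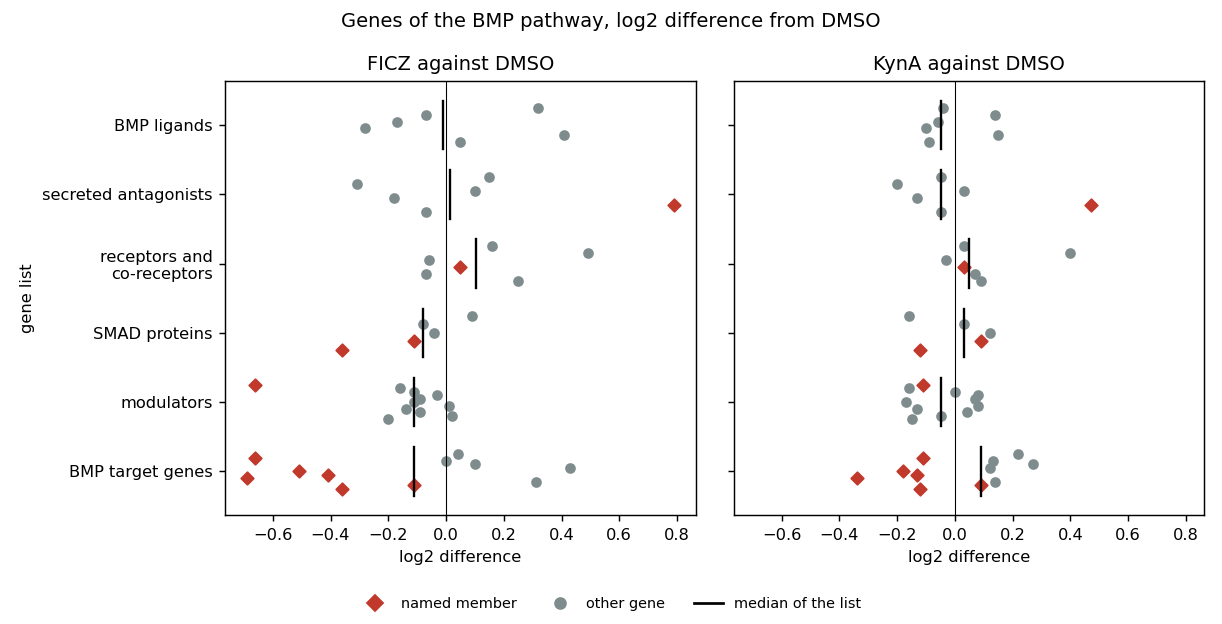
Log2 difference from DMSO (horizontal axis) of each tested gene in 6 BMP pathway lists (rows), for FICZ (left) and KynA (right); diamonds are the named members, circles other genes and vertical bars the median of each list. GREM1 stands alone among the antagonists at 0.79 and 0.47, and the target members lie at or below the other target genes. The members were chosen with FICZ values in view, so their place in the left panel tests nothing.

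Marker lists are given beside these values as ranges over arrays. The mean of 10 proliferation genes per array was 9.968 to 10.2 with FICZ and 10.27 to 10.37 with KynA, against 10.3 to 10.39 with DMSO. With FICZ 10 of 10 had differences below 0, beside 58.6% of all genes, and none was called, beside 0.851% of all genes. At an unadjusted p under 0.05, 6 were lower, beside 8.65% of all genes. Of 7 endothelial markers 4 had a row, PECAM1, CDH5 and CLDN5 not among them, and their array mean was 7.848 to 8.02 with FICZ and 7.712 to 8.014 with KynA, against 7.68 to 7.728 with DMSO. Of 7 myeloid markers 5 had a row, CD14 and CD68 not among them, at 8.053 to 8.636 with FICZ and 8.018 to 8.301 with KynA, against 7.789 to 8.288 with DMSO. The endothelial receptor gene KDR (0.48, limma adjusted p = 0.0293) and the microglial gene TMEM119 (0.63, limma adjusted p = 0.032) were called higher with FICZ. The endothelial gene VWF was at -0.10 with FICZ and -0.08 with KynA. The other myeloid markers, none of them called, were at 0.72 (ITGAM), 0.23 (CSF1R), 0.07 (AIF1) and -0.02 (PTPRC) with FICZ. ITGAM passed the filter on dim signals only with the help of its FICZ arrays, so nothing is read from its difference. With KynA, KDR differed by 0.37 and its arrays did not overlap those of DMSO (limma adjusted p = 0.719), and TMEM119 differed by 0.29 (1). The endothelial gene ERG differed by 0.28 with FICZ (limma adjusted p = 0.117) and 0.14 with KynA. Every DMSO array of ERG lay below its filter value. ERG entered the fit only through FICZ and KynA arrays, so nothing is read from its differences. The 8 fibroblast markers with a row lay at 8.935 to 9.136 with FICZ and 8.814 to 9.027 with KynA, against 8.811 to 8.992 with DMSO. The 4 epithelial ones lay at 8.398 to 8.796 with FICZ and 8.508 to 8.643 with KynA, within the 8.374 to 8.869 of DMSO. The part of these lists in the differences of GREM1 and the ID genes was not tested.

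The genes whose pattern was most like that of GREM1 were found by Pearson's r over the 12 arrays, as a description in which the group differences weigh most. Highest were SLC16A6, a monocarboxylate transporter family gene (r = 0.977), NPAS2, a clock transcription factor (0.968), SECTM1 (0.964), the neuronal pentraxin NPTX1 (0.962) and SSH1, a cofilin phosphatase (0.956). Most opposed were DEPDC1B (-0.918), the immediate early gene IER2 (-0.90), HMMR, a hyaluronan receptor tied to the mitotic spindle (-0.894), the calpain CAPN5 (-0.884) and POGK (-0.878).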

How the data were processed

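The authors deposited 1 log2 signal per array and row, from oligo's RMA, per the submitters' processing notes, which name no version. The matrix held 15759 rows with row means from 6.496. Platform symbols, which can be old, named 1 gene for 13577 rows, several for 744 and none for 1438; these last were not used. Each of 13530 genes kept the row with the highest mean. Testing required a signal over the 25th percentile of the array in 4 or more arrays. One limma 3.58.1 fit of group means over 12 arrays (R 4.3.3; 9 residual and 5.19 prior degrees of freedom) gave all contrasts, adjusted by Benjamini-Hochberg over 10807 genes. Precision is limited by the number of arrays; the median SE of a difference was 0.106.

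The members, lists, tests and the rule for named genes were chosen with earlier results of these data known. The rule took the 10 members, per pathway list the called genes and the 2 with the smallest p for FICZ, the 5 genes most and the 5 least correlated with GREM1, and CYP1B1, TIPARP, AHRR and AHR. AHRR differed by 0.97 with FICZ (limma adjusted p = 0.00565) and 0.54 with KynA (0.854, not passed), and AHR by -0.10 and 0.01, passing in neither. FSTL3, KDR, ERG, VWF, TMEM119, ITGAM, CSF1R, AIF1, PTPRC and the 5 target genes that are not members were named after their values were seen. On simulated data laid out as FICZ against DMSO with 10807 genes, 63 of 100 genes shifted by 0.5 on the log2 scale were called, all 100 shifted by 1 were, and 14 calls were false. The simulated noise was normal and independent between genes and arrays. The measured arrays differ in weight and share a component, so these rates may not carry over to them. The alternatives changed the scaling (median centring or cyclic loess), the filter (none, or the 50th percentile), the rows of a gene (their mean) and the variance model (trended and robust eBayes, or array weights). Further fits used just the compared groups, a replicate block, or all arrays but one. Promoters came from RefSeq. Plots were drawn with matplotlib 3.10.9 and pandas 2.3.3 in Python 3.11.15.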

Additional observations from a re-analysis of the deposited data

Results flagged for a closer look

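Of 27 sets of 4 arrays (9 members in 3 groups), 2 held an array far from the rest of its set by Dixon's criterion, which flags about 1 in 20 sets by chance. Both were DMSO 4. ID3 was 8.772 there, against 8.284 in the nearest DMSO array, a gap of 0.854 of the range. BAMBI was 9.332 there, against 8.751 in the nearest, a gap of 0.852 of the range. Without DMSO 4 the difference of FICZ from DMSO was -0.56 for ID3 (-0.69 with it) and -0.51 for BAMBI (-0.66 with it).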

How the results depend on the processing

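The members past the threshold for FICZ against DMSO, which test nothing, numbered 2, and 1 (GREM1) with only the groups compared; the 50th percentile filter kept 5 members and left the count at 2, with ID2 in place of ID3, which it left out; leaving out each array gave 1 to 3. Those called for KynA against DMSO numbered 0, and 1 (GREM1) with a trended, robust variance; leaving out each array gave 0 to 0, as it did for FICZ against KynA. The other BMP pathway genes called for FICZ numbered 0, and 1 (GDF5) with a trended, robust variance as well as under the 50th percentile filter; leaving out each array gave 0 to 1, and for KynA 0 to 0. Negative within-group correlations with GREM1 numbered 0 of 7, 1 (BAMBI) under cyclic loess and 1 (SMAD9, -0.01) with the replicate block, and 0 to 1 on leaving out each array; pairs past the threshold numbered 0, and 0 to 1 likewise. Equal replicate numbers did not meet the criterion for pairing, every same-number correlation of deviations over 0.1: of 12 same-number pairs over the 3 pairs of groups, 6 exceeded 0.1 (range -0.133 to 0.213), and 6 exceeded the correlations with other numbers. For number 2 all 3 pairs did both (0.155 to 0.213). With the replicate block, 3 members were called for FICZ, ID1 in addition, and no call of another member changed; all genes called numbered 6 for KynA and 6 for FICZ against KynA, each 1 without it. ID1 was also called with a trended, robust variance. Over all genes, calls for FICZ numbered 92, 140 with a trended, robust variance, 43 with only the groups compared, and 34 to 95 on leaving out each array (34 without FICZ 2 or FICZ 4, 42, 60, 46 and 48 without DMSO 1 to 4); for KynA 1 to 2 likewise and 2 with a trended, robust variance; for FICZ against KynA 1 to 3 likewise and 2 without the filter. Signs turned, always in values that did not pass, for 5 comparisons: SMAD6 with FICZ (-0.219 to 0.061 on leaving out each array), BMPR2 with FICZ (-0.058 to 0.116), with KynA (-0.078 to 0.096) and between ligands (-0.034 to 0.06), and BAMBI with KynA (-0.178 to 0.049). The causes were not tested. Dim signals limit ID3, SMAD6 and BMP4. BAMBI in FICZ 4 and SMAD9 in FICZ 1 also lay below the filter values. Among other named genes this held for most DMSO arrays of BMP2, ACVRL1 and ITGAM, most FICZ arrays of CHRDL1 and every FICZ array of ATOH8.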

Other observations

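In each group the array numbered 2 had the lowest ID1 signal, at 9.935 in FICZ 2, 10.15 in KynA 2 and 10.24 in DMSO 2, and the same held for BMPR2, at 9.751, 9.675 and 9.499. These 2 of the 8 tested members were noticed after the values were seen. Of all 10807 genes tested, 3.31% were lowest in the array numbered 2 of every group, and 1.77% to 2.39% in the arrays of each other number. What a replicate number stands for is not stated.

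Among the 21 pairs of the 7 tested members other than GREM1, examined after the values were seen, 18 within-group correlations were positive and none passed after adjustment over the pairs. The highest Pearson's r was 0.76, for ID1 with ID2 (exact permutation p = 0.014, adjusted 0.281; Spearman's rho 0.73, p = 0.0133, adjusted 0.28; r 0.65 without DMSO 2 and KynA 2). ID1 with BMPR2 had r = 0.72 (exact permutation p = 0.0382, adjusted 0.281; rho 0.43, p = 0.233), which was 0.22 without those arrays. ID2 with SMAD9 had r = 0.72 (exact permutation p = 0.0401, adjusted 0.281; rho 0.76, p = 0.0313; r 0.63 without KynA 2 and DMSO 3), and 82 of the other genes tested had a higher r with ID2.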
